A study of Mus musculus with 12 samples.

Results

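The 38 genes described here encode the folding machinery of the endoplasmic reticulum (ER) and the sensors and effectors of the unfolded protein response, as measured in the livers of mice that lack the E3 ubiquitin ligase MARCHF6 in hepatocytes. They were taken as a named list of ER chaperones, components of ER-associated degradation (ERAD) and genes of the ATF6, IRE1 and PERK branches. All 38 were found among the 54232 genes of the count table, and all 38 were among the 17509 genes that passed the filter on low counts. None of the 38 had 0 reads in any liver, and the lowest count was 7 reads (*Derl3* in 1 LKO liver).

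Poly(A) RNA of whole liver was sequenced from 6 control mice (WT) and 6 liver-specific *Marchf6* knockout mice (LKO), with 1 library per mouse. All were male C57Bl/6J littermates of 10 weeks on standard chow, fasted for 4 h before sacrifice. WT mice carried *Marchf6* fl/fl without AlbuminCre and LKO mice carried *Marchf6* fl/fl with AlbuminCre, so both groups share the floxed allele and the albumin promoter directs the recombinase to hepatocytes, while Kupffer, endothelial and stellate cells of the tissue are not targeted. The deleted exon encodes the RING domain, and the labels and the methods of the study number it differently. Total counts per liver ranged from 14860414 to 19013181 in WT and from 15242214 to 22111926 in LKO. *Marchf6* itself had 226 to 247 CPM (reads of a gene scaled to a common library size) in WT livers and 204 to 249 CPM in LKO livers, with a log2 fold change of -0.09 (SE 0.060, adjusted p = 0.585), and since loss of 1 exon need not lower the count of the whole gene, this count does not check the genotype labels. The library numbers run through WT and then LKO, so genotype and library order cannot be told apart. In bulk tissue, fewer cells of a type and less RNA per cell cannot be told apart either.

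Proteins that enter the secretory pathway are folded in the ER lumen by the chaperone BiP and its partners, by the lectins calnexin and calreticulin, and by protein disulfide isomerases. When unfolded proteins accumulate, ATF6 is cleaved to a transcription factor that drives chaperone genes through the ER stress response element (ERSE), IRE1 splices *Xbp1* mRNA to yield a second factor that drives ERAD and secretory genes, and PERK phosphorylates eIF2alpha, which lowers translation while favouring that of ATF4. The hepatocyte secretes most plasma proteins and carries a large ER, and MARCHF6 is itself a ubiquitin ligase of the ER membrane. Gene counts measure transcript levels only, and they report neither ATF6 cleavage, *Xbp1* splicing nor PERK phosphorylation.

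The ERSE is the best known shared sequence of these genes, and it is shown here because the members that carry it can then be followed through the results. It was searched as a CCAAT box and a CCACG box parted by 9 bases of any kind, on both strands, in RefSeq windows (GRCm38.p6) that run from 250 bases before to 50 bases after each start, and 33 of the 38 genes had a window. *Derl1*, *Sec61a1*, *Atf6*, *Manf* and *Hyou1* had none. The motif was found in 8 of the 33 genes (24.2%), against 37 of 27025 genes (0.137%) over all windows. Capitals mark the CCAAT and CCACG boxes, and each stretch is written on the strand on which the motif reads forward.
Hspa5 (chr2:34772020-34772049, plus strand): cttcaCCAATcggaggcctCCACGacgggg
Hsp90b1, distal (chr10:86705632-86705661, minus strand): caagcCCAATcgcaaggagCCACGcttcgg
Hsp90b1, proximal (chr10:86705528-86705557, plus strand): actcaCCAATcgtgcctcaCCACGcactct
Dnajc3 (chr14:118937822-118937851, plus strand): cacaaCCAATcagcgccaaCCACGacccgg
Pdia6 (chr12:17266486-17266515, plus strand): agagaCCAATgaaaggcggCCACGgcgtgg
Calr (chr8:84847070-84847099, plus strand): atgggCCAATgagggtcgaCCACGcgttgt
Canx (chr11:50325794-50325823, minus strand): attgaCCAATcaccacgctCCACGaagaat
Creld2 (chr15:88819514-88819543, minus strand): gtggaCCAATtgaggctcgCCACGagaagc
Derl3 (chr10:75893236-75893265, minus strand): gctagCCAATggggaagtcCCACGgtagag
In *Hspa5*, *Dnajc3*, *Pdia6* and *Canx* the motif lay on the strand of the gene, in *Calr*, *Creld2* and *Derl3* on the opposite strand, and *Hsp90b1* had 1 of each. The *Hspa5* stretch overlaps an annotated *Hspa5* exon, and the others overlap no annotated exon. A match of letters is a description of the sequence and not evidence of binding.

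The shorter ERSE-II, in which ATTGG and CCACG are parted by 1 base of any kind, was found in 2 of the 33 genes, *Herpud1* and *Dnajb11*, against 12 of 27025 genes (0.0444%). Both stretches are given with the motif in capitals, since they mark the remaining members with a sequence of this kind.
Herpud1 (chr8:94386368-94386397, plus strand): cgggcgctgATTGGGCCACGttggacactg
Dnajb11 (chr16:22857843-22857872, plus strand): ccggcggcgATTGGCCCACGcctggctgct
The *Dnajb11* stretch overlaps an annotated *Dnajb11* exon. The XBP1-type element TGACGTGG was in none of the 33 windows and in 193 of 27025 genes (0.714%). The ATF4-type element TGATGCAA was in the windows of *Chac1* and *Herpud1* and in 279 of 27025 genes (1.03%).

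The comparison of LKO with WT livers asks whether transcripts of the ER folding and stress programme differ when the ligase is lost. With p adjusted by Benjamini-Hochberg over 17509 genes, edgeR's quasi-likelihood test placed 0 of the 38 genes under 0.05, where it placed 75 genes (0.428%) of the whole table there, 27 of them lower in LKO (0.154%). The number over all genes depended on single livers, with 38 genes without WT replicate 5 and 132 without WT replicate 3. Without a correction for multiple tests, 15 of the 38 genes (39.5%) had p under 0.05 and a lower level in LKO, against 5.36% of all genes, and 0 had p under 0.05 and a higher level, against 6.33% of all genes (1 of the 38, *Ddit3*, without LKO replicate 6). The log2 fold change of LKO over WT was below 0 for 32 of the 38, against 50% of all genes, and its median was -0.21, against 0.00016 over all genes. The lowest adjusted p among the 38 was 0.0828, for *Dnajc3*. The study's own kind of test, limma voom, also called 0 of the 38, where it called 0.485% of all genes and 0.171% as lower. DESeq2 called 8 (*Hsp90b1*, *Dnajc3*, *Sdf2l1*, *Pdia3*, *Pdia4*, *Pdia6*, *Canx* and *Sel1l*), each lower in LKO, where it called 2.17% of 16141 genes and 1.05% as lower. Genes of one programme share their regulators, so 15 genes are not 15 independent observations.

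**Figure D1:**
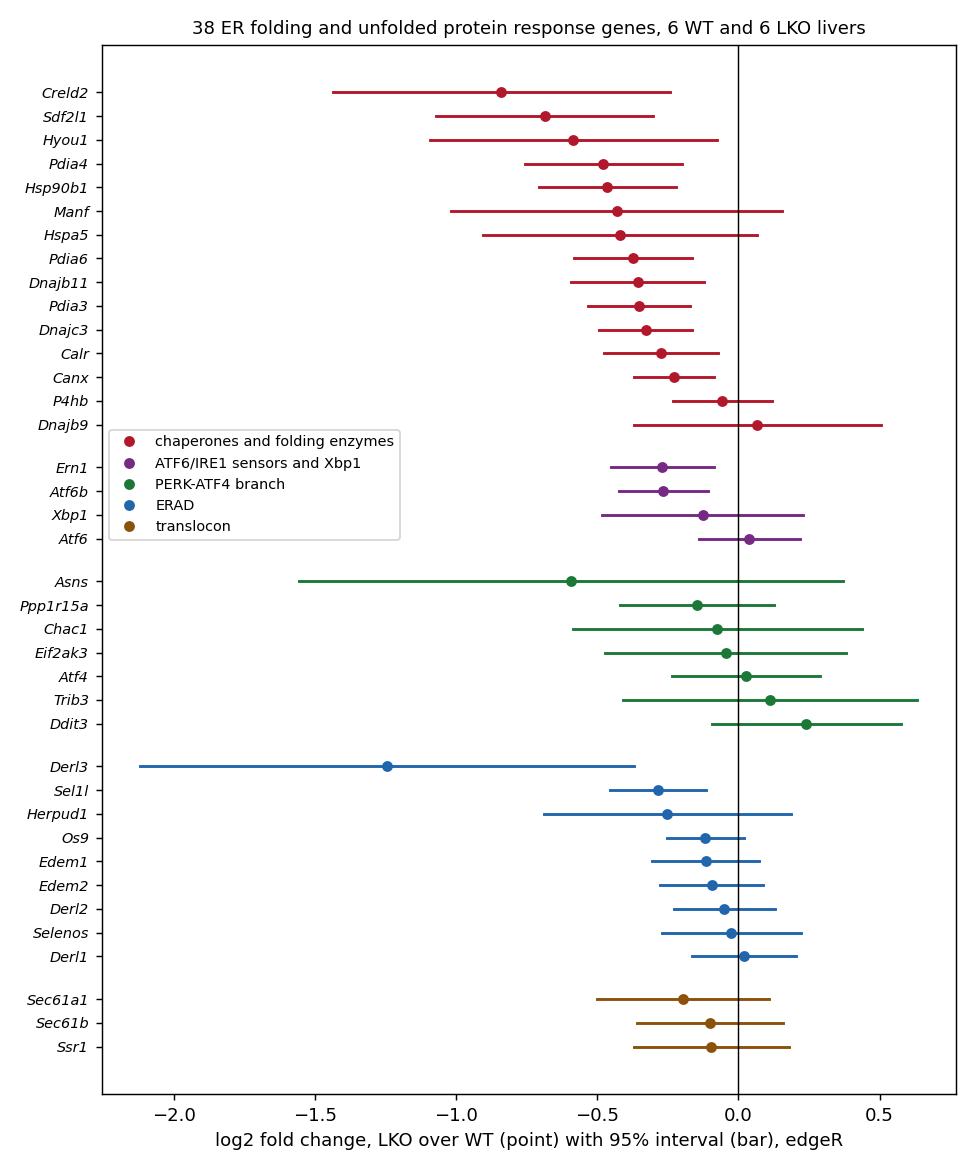
Log2 fold change of LKO over WT (x axis, points) with the 95% interval (bars) from edgeR for each of the 38 genes (y axis), grouped and coloured by role. The intervals of 15 genes lie wholly below 0, 11 of them among the chaperones and folding enzymes, and no interval lies wholly above 0.

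The chaperones and folding enzymes held 11 of the 15 genes that were lower at unadjusted p under 0.05. Of their 15 genes, 14 had a log2 fold change below 0, and the median was -0.37. In 10 of the 15, all 6 LKO livers lay below the WT mean, a count that was not made over all genes. Among the ATF6 and IRE1 sensors and *Xbp1*, 3 of 4 were below 0 with a median of -0.20 (-0.12 without WT replicate 2) and 2 had p under 0.05. The PERK and ATF4 branch had 4 of 7 below 0, a median of -0.04 and 0 with p under 0.05 in either direction, and its median ran from -0.12 without WT replicate 3 to 0.0455 without LKO replicate 6, with values above 0 also without WT replicate 1 or 2 or LKO replicate 4 or 5. The ERAD genes had 8 of 9 below 0, a median of -0.12 and 2 with p under 0.05, and the translocon genes had 3 of 3 below 0, a median of -0.10 and 0 with p under 0.05. The translocon median was -0.20 without LKO replicate 1, -0.0617 without WT replicate 2 and -0.0262 without LKO replicate 5. With WT replicate 2 and LKO replicate 5 both left out, the medians were -0.24 for the chaperones, -0.0902 for the sensors, 0.0520 for the PERK branch, -0.0351 for ERAD and 0.0285 for the translocon. Differences between these groups were not tested.

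BiP, encoded by *Hspa5*, is the main Hsp70 chaperone of the ER lumen and holds the stress sensors inactive when folding is in balance. Its level was 724 CPM in the lowest, 897 in the median and 1520 in the highest WT liver, and 485, 710 and 1193 CPM in LKO livers. The groups overlapped, with 3 LKO livers under the lowest WT liver and LKO replicate 1 among the higher livers. LKO differed from WT by a log2 fold change of -0.42 (SE 0.23, 95% interval -0.90 to 0.07, edgeR unadjusted p = 0.0848, adjusted p = 0.499), and of -0.26 without WT replicate 2.

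*Hsp90b1* encodes GRP94, the Hsp90 of the ER lumen, and lies on chromosome 10 (86690209 to 86705509, GRCm38). It had 752, 867 and 1177 CPM in the lowest, median and highest WT liver and 500, 653 and 769 CPM in LKO livers, so that only the highest LKO liver entered the WT range. The log2 fold change was -0.46 (SE 0.11, edgeR adjusted p = 0.0935), a 1.38-fold higher level in WT. *Hyou1*, an Hsp110-type exchange factor for BiP, spread more widely, from 226 to 474 CPM with a median of 273 in WT and from 120 to 337 CPM with a median of 196 in LKO. The ranges overlapped, although 4 LKO livers lay below the lowest WT liver, and the log2 fold change was -0.58 (SE 0.24, adjusted p = 0.342).

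*Dnajc3* and *Dnajb11* encode J-domain partners that deliver clients to BiP. *Dnajc3* had 324, 356 and 428 CPM in the lowest, median and highest WT liver and 251, 293 and 319 CPM in LKO livers. The groups did not overlap, as was the case for 4 of the 38 genes (*Dnajc3*, *Pdia3*, *Pdia6* and *Atf6b*), each with all LKO livers lower, against 0.554% of all genes, and 0 genes had all LKO livers higher, against 0.748%. The log2 fold change of *Dnajc3* was -0.33 (SE 0.077, edgeR adjusted p = 0.0828), and that of *Dnajb11* was -0.36 (SE 0.11, adjusted p = 0.206) with 5 LKO livers under the lowest WT liver. *Dnajb9*, a J-domain protein that restrains IRE1 and is a well known target of XBP1, was the 1 chaperone gene with a value above 0, a log2 fold change of 0.07 (SE 0.20), and LKO replicate 1 was its highest liver.

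*Sdf2l1*, which works with DNAJB11 to keep BiP clients from aggregating, had 25.3, 31.3 and 41.0 CPM in the lowest, median and highest WT liver and 9.89, 21.1 and 25.8 CPM in LKO livers. Only the highest LKO liver exceeded the lowest WT liver, and the log2 fold change was -0.69 (SE 0.18, edgeR adjusted p = 0.124), a 1.61-fold higher level in WT. *Creld2*, an ER stress-inducible protein of the lumen, had 31.1, 49.3 and 95.6 CPM in WT and 16.5, 28.5 and 51.4 CPM in LKO. Its highest LKO liver lay within the WT range and the other 5 lay below it, and the log2 fold change was -0.84 (SE 0.28, adjusted p = 0.237), the lowest of the chaperone group. *Manf*, a secreted protein that binds BiP and is released under stress, had a log2 fold change of -0.43 with an interval of -1.02 to 0.16. That value was -0.28 without WT replicate 2 and -0.69 without LKO replicate 1.

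The protein disulfide isomerases did not share one value. *Pdia3*, which acts on glycoproteins held by calnexin and calreticulin, had 503, 538 and 626 CPM in the lowest, median and highest WT liver and 336, 438 and 480 CPM in LKO, with no overlap. *Pdia6*, an isomerase that also damps IRE1, had 273, 301 and 343 CPM in WT and 166, 243 and 258 CPM in LKO, again with no overlap. The log2 fold changes were -0.35 (SE 0.084, edgeR adjusted p = 0.0878) for *Pdia3* and -0.37 (SE 0.097, adjusted p = 0.123) for *Pdia6*. *Pdia4* had 223, 258 and 348 CPM in WT and 137, 192 and 225 CPM in LKO, where 5 LKO livers lay below the lowest WT liver, and its log2 fold change was -0.48 (SE 0.13, adjusted p = 0.134). *P4hb*, which encodes the founding member PDI and was the most abundant of the 38 genes per kilobase of exon (542 CPM per kb in WT), had a log2 fold change of -0.06 with an interval of -0.23 to 0.12. The lectins *Calr* and *Canx* had log2 fold changes of -0.27 (SE 0.094) and -0.23 (SE 0.066), each with 5 LKO livers below the lowest WT liver.

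**Figure D2:**
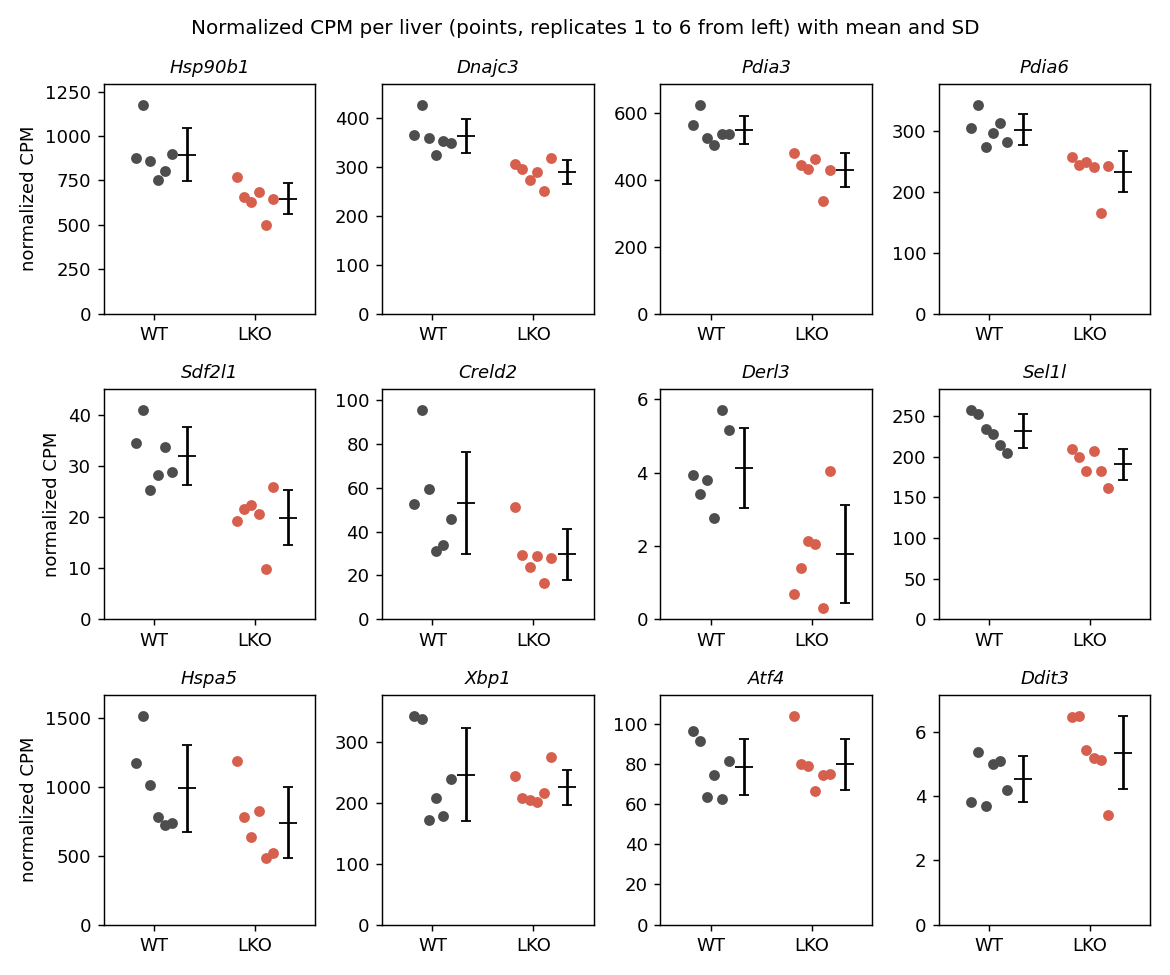
Normalized CPM (y axis, from 0) of 12 of the genes in each of the 6 WT (grey) and 6 LKO (red) livers, with the mean and SD of each group beside the points. *Dnajc3*, *Pdia3* and *Pdia6* separate the groups, while *Hspa5*, *Xbp1*, *Atf4* and *Ddit3* overlap widely.

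Of the sensors, *Atf6b* had the narrowest spread among WT livers of all 38 genes. This gene encodes a relative of ATF6 that is cleaved in the same way. Its level was 17.0, 17.8 and 18.1 CPM in the lowest, median and highest WT liver and 12.8, 14.2 and 16.9 CPM in LKO livers, with no overlap, although the nearest livers of the groups, at 17.0 and 16.9 CPM, lay close together. Its log2 fold change was -0.27 (SE 0.074, edgeR adjusted p = 0.144). *Atf6*, in contrast, had 103, 116 and 131 CPM in WT and 104, 120 and 136 CPM in LKO, with a log2 fold change of 0.04 (95% interval -0.14 to 0.22) and an almost complete overlap.

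*Ern1*, which encodes IRE1alpha, had 110, 122 and 141 CPM in the lowest, median and highest WT liver and 84.6, 99.4 and 117 CPM in LKO, and 4 LKO livers lay below the lowest WT liver. Its log2 fold change was -0.27 (SE 0.086, edgeR adjusted p = 0.218). *Xbp1*, the mRNA that IRE1 splices and a gene that ATF6 and XBP1 themselves induce, had 172, 223 and 343 CPM in WT and 201, 212 and 276 CPM in LKO. No LKO liver lay below the lowest WT liver, and the log2 fold change was -0.13 (95% interval -0.48 to 0.23). WT replicates 1 and 2 were the highest livers for *Xbp1*, and its log2 fold change was -0.0060 without WT replicate 1 and -0.0176 without WT replicate 2, and -0.21, -0.20 and -0.19 without WT replicate 3, WT replicate 5 or LKO replicate 6.

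The PERK branch gave values on either side of 0. *Eif2ak3*, which encodes PERK, had 11.9, 15.3 and 22.5 CPM in the lowest, median and highest WT liver and 9.95, 14.4 and 25.2 CPM in LKO, with a log2 fold change of -0.04 (95% interval -0.47 to 0.38). *Atf4*, the transcription factor of this branch, had 62.7, 78.0 and 96.4 CPM in WT and 66.6, 76.8 and 104 CPM in LKO, with a log2 fold change of 0.03 (95% interval -0.23 to 0.29). The ranges of both genes overlapped almost completely.

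*Ddit3*, which encodes the death-associated factor CHOP, had 3.68, 4.58 and 5.36 CPM in the lowest, median and highest WT liver and 3.41, 5.31 and 6.50 CPM in LKO. Its log2 fold change of 0.24 was the highest of the 38 genes (95% interval -0.09 to 0.57, edgeR unadjusted p = 0.145), it was 0.34 without LKO replicate 6, and 5 LKO livers lay above the WT mean. *Trib3*, a pseudokinase induced by ATF4 and CHOP, had a log2 fold change of 0.11, and *Ppp1r15a*, which encodes the GADD34 subunit that reverses eIF2alpha phosphorylation, had one of -0.15. *Chac1*, which degrades glutathione, had one of -0.07. *Asns*, asparagine synthetase, had the widest spread among WT livers of all 38 genes, and its log2 fold change of -0.59 had an interval of -1.56 to 0.37 and was -0.34 without WT replicate 2 and -0.37 without LKO replicate 5. Of the 7 genes of this branch, *Atf4* had the narrowest interval and *Asns* the widest.

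ERAD withdraws misfolded proteins from the ER for ubiquitination and proteasomal degradation. *Sel1l*, the adaptor of the HRD1 ligase, had 205, 231 and 257 CPM in the lowest, median and highest WT liver and 161, 191 and 209 CPM in LKO. Only 2 LKO livers reached the WT range, and the log2 fold change was -0.28 (SE 0.079, edgeR adjusted p = 0.149). *Herpud1*, a stress-inducible organiser of the same complex, had 249.7, 511 and 680 CPM in WT and 299.7, 414 and 535 CPM in LKO. Its LKO livers all lay inside the WT range, and the log2 fold change was -0.25 (95% interval -0.69 to 0.19), with -0.14 without WT replicate 3 and -0.39 without WT replicate 6.

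The 3 derlins, which form part of the retrotranslocation channel, had separate values. *Derl3*, the stress-inducible derlin, had 2.76, 3.87 and 5.71 CPM in the lowest, median and highest WT liver and 0.301, 1.73 and 4.05 CPM in LKO. Of the LKO livers, 5 lay below the lowest WT liver and LKO replicate 6 lay within the WT range. The log2 fold change of -1.24 (SE 0.41, edgeR adjusted p = 0.232) was the lowest of the 38 genes, and it rested on 41 to 109 reads per WT liver and 7 to 75 reads per LKO liver. *Derl1* and *Derl2* had log2 fold changes of 0.02 and -0.05, with intervals that lay between -0.23 and 0.21. The lectin and mannosidase-like genes that pick glycoproteins for degradation had log2 fold changes of -0.12 (*Os9*), -0.12 (*Edem1*) and -0.09 (*Edem2*), and *Selenos*, which recruits the VCP ATPase, had one of -0.02.

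The 250 bases upstream of *Derl3* are given because this gene had the lowest log2 fold change and carries an ERSE. They lie at chr10:75893148-75893397 on the plus strand of GRCm38.p6, the strand of the gene, and overlap no annotated exon. The ERSE is on the opposite strand, so its boxes read CGTGG and then ATTGG in capitals.
Derl3 upstream: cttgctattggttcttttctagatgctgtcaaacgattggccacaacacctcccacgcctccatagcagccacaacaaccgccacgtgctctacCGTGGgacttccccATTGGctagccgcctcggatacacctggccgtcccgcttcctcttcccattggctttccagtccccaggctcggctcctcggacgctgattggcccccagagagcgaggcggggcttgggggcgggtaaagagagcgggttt

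Of the genes through which proteins enter the ER, *Sec61a1*, which encodes the channel subunit of the translocon, had 136, 150.2 and 218 CPM in the lowest, median and highest WT liver and 104, 135 and 196 CPM in LKO. The groups overlapped, with 3 LKO livers below the lowest WT liver, and the log2 fold change was -0.20 (95% interval -0.50 to 0.11), with -0.0884 without WT replicate 2, -0.12 without LKO replicate 5 and -0.32 without LKO replicate 1. *Sec61b*, a further channel subunit, and *Ssr1*, of the translocon-associated complex, each had a log2 fold change of -0.10.

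Read by branch, the 10 genes that lean on ATF6 (*Hspa5*, *Hsp90b1*, *Calr*, *Pdia4*, *Hyou1*, *Creld2*, *Manf*, *Sdf2l1*, *Herpud1* and *Sel1l*) all had log2 fold changes below 0, with a median of -0.45, and 7 had p under 0.05. The 10 that lean on XBP1 (*Dnajb9*, *Dnajc3*, *Dnajb11*, *Pdia6*, *Edem1*, *Derl2*, *Derl3*, *Sec61b*, *Sec61a1* and *Ssr1*) had 9 below 0, a median of -0.16, and 4 with p under 0.05. The XBP1 median was -0.0802 without WT replicate 2, -0.10 without LKO replicate 5 and -0.26 without LKO replicate 1, and with WT replicate 2 and LKO replicate 5 both left out the medians were -0.27 for the ATF6 and -0.0326 for the XBP1 genes. Many of these genes answer to both factors, and the difference between the lists was not tested. Read by motif, the 8 genes with an ERSE had 8 of 8 log2 fold changes below 0, a median of -0.40 and 7 with p under 0.05, with *Hspa5* the exception. The 25 genes whose window held no ERSE had 21 below 0, a median of -0.12 and 7 with p under 0.05. All genes with an ERSE except *Derl3* are chaperones or folding enzymes, whose median was -0.37, so this split largely follows role. The genes of that group whose window held no ERSE had -0.69 (*Sdf2l1*), -0.48 (*Pdia4*), -0.36 (*Dnajb11*), -0.35 (*Pdia3*), -0.06 (*P4hb*) and 0.07 (*Dnajb9*). A difference by motif within that group was not tested. Among 12 other tested genes with an ERSE in their window, the median log2 fold change was 0.02, with 1 gene lower and 1 higher at p under 0.05.

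**Figure D3:**
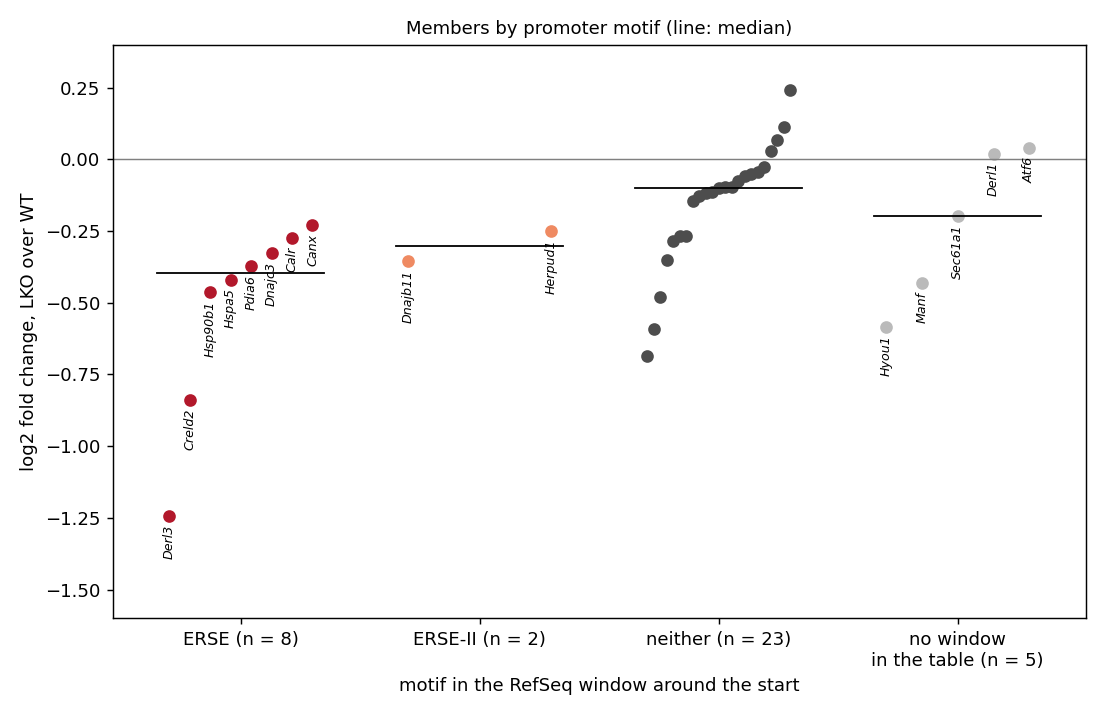
Log2 fold change of LKO over WT (y axis) for the 38 genes, split by the motif found in the RefSeq window around the start (x axis), with the median of each group as a line. The 8 genes with an ERSE and the 2 with an ERSE-II lie below 0, and the 23 with neither span 0 with a median of -0.10. Apart from *Derl3*, the genes with an ERSE are all chaperones or folding enzymes.

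The livers did not contribute equally. WT replicate 2 was the highest of the 12 livers for 20 of the 38 genes, and LKO replicate 5 the lowest for 24, followed by LKO replicate 6 with 7. These counts were not made over all genes, so they do not show whether the same livers were extreme more widely. The median log2 difference from the WT mean over the 38 genes was 0.23 in WT replicate 2, -0.47 in LKO replicate 5 and 0.00 in LKO replicate 1, and the other 4 LKO livers lay between -0.34 and -0.17. LKO replicate 5 also had the largest total count of all livers, 22111926. With WT replicate 2 and LKO replicate 5 both left out, 13 of the 38 genes had p under 0.05 and a lower level in LKO. In the same fit 27 of 38 had a log2 fold change below 0, and the median was -0.13, against 0.0025 over all genes. The shares of all genes that were lower, or lower at p under 0.05, were not counted for this choice. Under that choice *Hspa5* had a log2 fold change of -0.16, *Hyou1* of -0.30, *Creld2* of -0.46 and *Dnajc3* of -0.24.

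**Figure D4:**
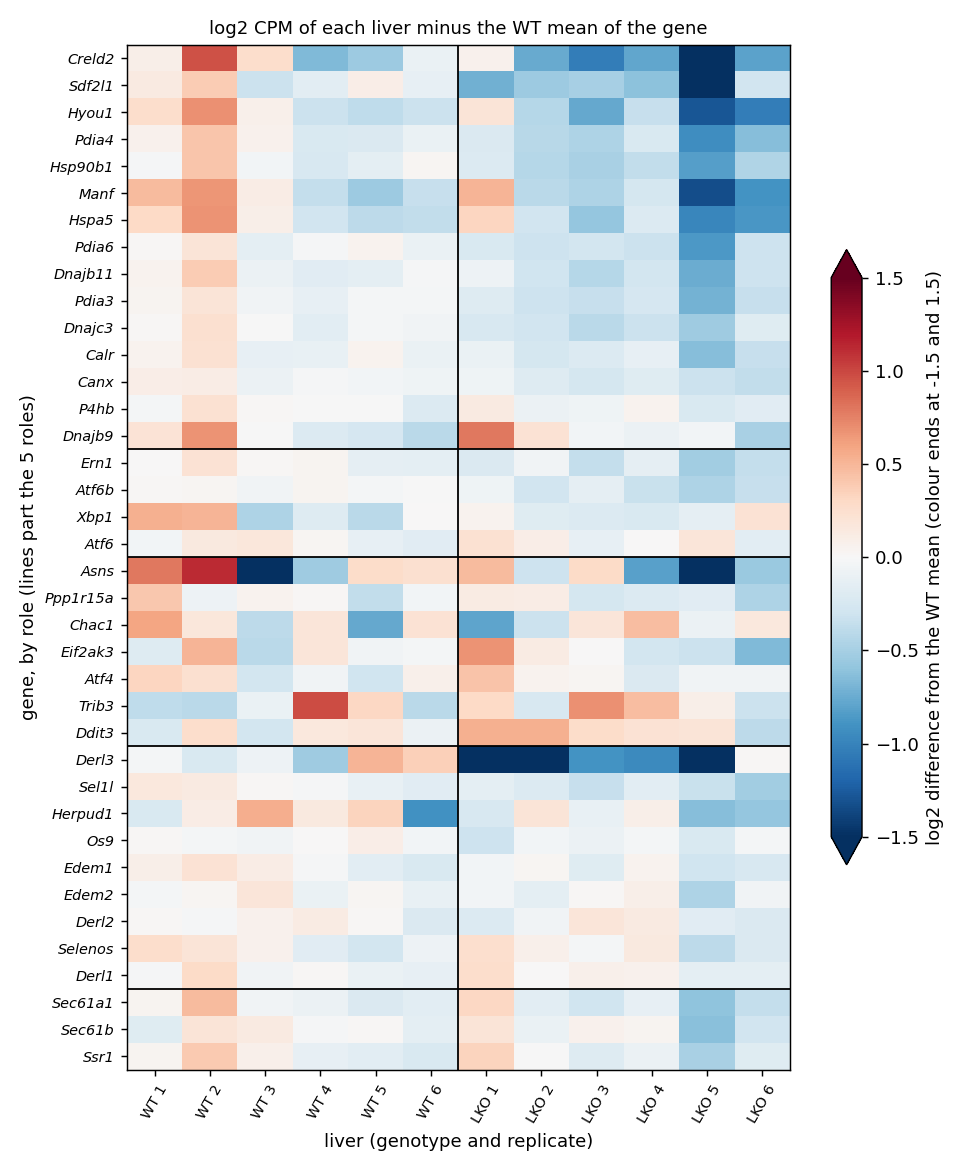
Log2 CPM of each liver minus the WT mean of the gene (colour, ends at -1.5 and 1.5) for the 38 genes (y axis, by role) in the 12 livers (x axis). WT replicate 2 is red and LKO replicate 5 blue over most chaperone rows, and the PERK branch rows show no common colour in LKO.

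Markers of other cells were also compared between the genotypes. Of 10 Kupffer cell markers, 10 had log2 fold changes above 0 and 9 had p under 0.05, with 0 past the adjusted threshold in edgeR and limma voom and 3 in DESeq2, and their summed level was 140 to 190 CPM in WT and 170 to 294 CPM in LKO. Plasma cells are rich in *Derl3*, *Creld2* and *Sdf2l1*, and of 8 plasma cell markers *Tnfrsf17* had 3 reads or fewer in every liver. Of the 7 tested, 5 had log2 fold changes above 0 and 2 below (median 0.34). Of these, 1, *Prdm1* (0.90, at 0.298 CPM in WT), had p under 0.05. The plasma cell sum, 145 to 240 CPM in WT and 130 to 160 CPM in LKO, was mostly *Sdc1*, which hepatocytes also express. Without *Sdc1* it was 3.72 to 5.72 CPM in WT and 3.28 to 7.01 CPM in LKO. Among B cell markers *Ighm* fell (log2 fold change -1.78, edgeR adjusted p = 4.06e-06), so that the B cell sum was 16.0 to 24.0 CPM in WT and 6.70 to 9.63 CPM in LKO, while 4 of the other markers had p under 0.05 and higher levels. Of 7 stellate cell markers, 7 had log2 fold changes above 0 (median 0.22) and 1, *Lrat*, had p under 0.05, with sums of 162 to 248 CPM in WT and 190 to 284 CPM in LKO. Of 8 endothelial markers, 6 were above 0 (median 0.07) and 1, *Lyve1*, had p under 0.05 and was called higher by DESeq2 alone. Of 5 cholangiocyte markers, 3 were above 0 (median 0.25) and 1, *Sox9*, had p under 0.05 and a lower level in LKO. The hepatocyte sum, which *Alb* led, was 99632 to 123104 CPM in WT and 92300 to 102404 CPM in LKO, with no marker at 0 CPM. Of the 8 hepatocyte markers, 6 had log2 fold changes below 0 and 2 above (median -0.06). Of these, 1, *Alb* (-0.18), had p under 0.05. The part of these cells in the values of the 38 genes was not tested.

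Further genes of these pathways and of stress responses outside the ER were listed by function, and their median lay nearer to 0. Of 150 tested genes in 8 lists, 14 of them cytosolic and mitochondrial chaperones, 100 had log2 fold changes below 0, the median was -0.05, the range was -0.67 to 1.02, and 12 (8%) had p under 0.05 and were lower and 7 (4.67%) higher. None passed the adjusted threshold in edgeR, and limma voom and DESeq2 each called 1, *Ero1b*. Among 22 other ER oxidation and folding genes, 17 were below 0 with a median of -0.10, 4 had p under 0.05 and were lower and 1 higher. They were led by *Ero1b*, an oxidase that recharges the disulfide isomerases, with 82.6 ± 8.68 CPM in WT and 60.4 ± 8.03 CPM in LKO (SD over 6 livers each), a log2 fold change of -0.45 and an adjusted p of 0.0540, and by the prolyl isomerase *Ppib* with -0.26. Of 16 N-glycosylation and glucose trimming genes, 15 were below 0 with a median of -0.08 and 2 had p under 0.05, the oxidoreductase subunit *Magt1* (-0.28) and the folding sensor *Uggt1* (-0.22).

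Of 23 other ERAD genes, 18 were below 0 with a median of -0.05, and the lowest p belonged to the ligase *Rnf139* (-0.15) and the VCP cofactor *Ufd1* (0.14). Of 20 other translocation genes, 15 were below 0 with a median of -0.05, led by *Sec63* (-0.17) and *Ssr3* (-0.22). The 28 other ATF4 targets had a median of 0.03, with 1 gene lower and 4 higher at p under 0.05, and the lowest p belonged to the stress regulator *Nupr1* (0.89, at 0.530 CPM in WT) and the serine hydroxymethyltransferase *Shmt2* (-0.20). The 20 other stress sensors and their processing genes had a median of -0.02, with the liver factor *Creb3l3* (-0.16) and the protease *Mbtps1* (-0.14), which cleaves ATF6, both at p under 0.05.

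Exons of some of these genes overlap those of neighbours, and whether the counting used strand is not given in the sources used here. On the other strand, the overlap covers 415 bases of *Hsp90b1* with a pseudogene, 231 bases of *Derl2* with *Mis12* and 146 bases of *Manf* with *Dcaf1*. It also covers 485 bases of *Eif2ak3* and 549 bases of *Sec61a1*, each with an opposite-strand transcript, and 68 bases of *Ddit3* with *Mars*. Overlaps on the same strand hold whatever the strand setting, and include 84 bases of *Hsp90b1* with *Gm15344* and 133 with *Gm25745*. *Ddit3* also overlaps another protein-coding entry of the same name by 105 bases on the same strand. Of the entries counted under a symbol, that with the most reads was used. The counts of all these genes are less certain.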

How the data were processed

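Whole liver RNA of 6 WT and 6 LKO mice was sequenced, and groups were taken from the deposited labels. The authors deposited raw counts per Ensembl gene. Per the labels and the methods of the study, they checked reads with FastQC (0.11.15) and Picard, trimmed them with Trimmomatic (0.36), aligned them to GRCm38.p6 with HISAT2 (2.1.0) and counted them with HTSeq (0.6.1). The counting mode and strand setting are not given in the sources used here.

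A gene was tested if 6 or more livers each held over 2 of its reads. Counts were normalized by TMM and tested with edgeR's quasi-likelihood test (4.0.16, R 4.3.3) in a model of genotype alone, and p-values were adjusted by Benjamini-Hochberg over the genes tested. Standard errors and 95% intervals were derived from the F statistic. CPM were normalized by the TMM library size, and log2 CPM used a prior count of 0.5. Alternatives were limma voom (3.58.1), DESeq2 (1.42.0), RLE and upper-quartile scaling, a library size without the 20 most abundant genes, no filter, at least 10 reads in every liver, a replicate block and each liver left out. On simulated counts (17164 genes, 200 changed) the edgeR step recovered 96% of genes changed 2-fold and 100% of those changed 4-fold, with 3.92% false calls. Recovery of changes smaller than 2-fold was not measured. The ER folding and stress genes had a median log2 fold change of -0.21 (LKO over WT), so the simulation does not show how often falls of that size would be called. Symbols, exon lengths and positions came from GENCODE M21, in which 99.9% of the identifiers were found. No pair of libraries of the same genotype agreed within sampling noise (mean chi-square per gene 8.06 to 43.4). Pairs across genotypes were not compared. At 14860414 to 22111926 counts per liver, counting error matters mainly for the least abundant genes, such as *Derl3*.

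The genes and lists were chosen with earlier results of these data known. Values per group are given for genes with an adjusted p under 0.05, genes whose groups do not overlap, the 6 largest falls and 6 largest rises at unadjusted p under 0.05, and 10 central genes of the branches, and each further list gives its 2 genes with the lowest p. Other genes named, the motif search, the *Derl3* stretch, the 12 plotted genes, the plasma cell sum without *Sdc1* and the joint omission of 2 livers were chosen after their values were seen.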

Additional observations from a re-analysis of the deposited data

Results flagged for a closer look

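In 8 of 78 sets of 6 livers (38 genes and the total count, in each genotype), 1 liver stood apart from the others by a share of its group's range above the 95% critical value of Dixon's test, where chance gives about 1 in 20, or 3.9. WT replicate 2 was the highest WT liver for *Hsp90b1* (gap over range 0.649), *Dnajb11* (0.628), *Derl1* (0.687) and *Sec61a1* (0.678). LKO replicate 5 was the lowest LKO liver for *Pdia3* (0.651) and *Pdia6* (0.818). LKO replicate 1 was the highest LKO liver for *Creld2* (0.637) and *Atf4* (0.641). The cause was not tested.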

How the results depend on the processing

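No alternative called a member at an adjusted p under 0.05 except DESeq2, which called 8 of the 38 and 351 genes in all against 75. The number of all genes called was 114 without a filter on low counts, 48 with WT replicate 2 and LKO replicate 5 left out, and 38 to 132 with single livers left out. Members higher at unadjusted p under 0.05 numbered 0 to 1 with single livers left out, and those lower numbered 14 to 18. The share of all genes at unadjusted p under 0.05 was not counted under the alternatives. With WT replicate 2 and LKO replicate 5 left out, log2 fold changes turned positive for *P4hb* (0.0234), *Eif2ak3* (0.13), *Selenos* (0.0811), *Sec61b* (0.0285) and *Ssr1* (0.0643). With single livers left out, the sign turned for *Dnajb9* (-0.12 to 0.23), *Atf6* (-0.00017 to 0.0764), *Eif2ak3* (-0.24 to 0.0731), *Atf4* (-0.0636 to 0.0965), *Trib3* (-0.0067 to 0.37), *Chac1* (-0.20 to 0.0595), *Derl1* (-0.0333 to 0.0825) and *Selenos* (-0.0850 to 0.0419). None of these genes had p under 0.05 with all livers. Of the values of single members under alternatives, 764 kept direction and side of the threshold, 25 turned and 8 gained a call. *Derl3* was not tested where 10 reads were required in every liver. No scaling moved the median of all genes by over 0.1. Whether the replicate numbers pair the livers is not stated, and a check on 6 numbers cannot decide it. The correlation of deviations was -0.18 to 0.29 over the 6 numbers and above 0.1 for 5 of them. Of the livers, 1 of 6 WT and 3 of 6 LKO correlated best with their own number. With the replicate block, 97 genes and 0 members were called and 17 members were lower at unadjusted p under 0.05.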

Other observations

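Some gene groups outside the ER lumen were also measured. Of 14 cytosolic and mitochondrial chaperone genes, which answer to heat shock and mitochondrial stress, 9 had log2 fold changes below 0 with a median of -0.09, and 1, *Hspa4* (-0.16), had p under 0.05, followed by *Hsph1* (-0.40). Of 7 transcripts known to be cut by IRE1, 6 had log2 fold changes above 0 with a median of 0.23, and the lowest p belonged to *Sparc* (0.30) and *Pmp22* (0.32). *Sparc*, *Col6a1* and *Pdgfrb* of that list are also expressed by stromal cells. The 12 clock genes had a median of -0.10 and 0 had p under 0.05 in edgeR. None of the genes in these 3 lists passed an adjusted p of 0.05 in edgeR, limma voom or DESeq2.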
